A study of Mus musculus with 36 samples.

Results

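Choroid plexus epithelium genes were followed in bulk RNA sequencing of mouse hippocampus. The 10 genes were Ttr, Kl, Folr1, Clic6, Aqp1, Kcnj13, Otx2, Slc4a5, Cldn2 and F5, taken by symbol from the 78298 gene identifiers of the count table, whatever their level. Of these, 9 passed the filter on low counts, which kept 21172 genes in all. The libraries numbered 36, in 6 groups of 6: vehicle or cannabidiol (CBD) given to wild-type mice (WT) and to knockout mice (KO) of either Fmr1 or Shank3. The product of Fmr1 binds RNA and is missing in fragile X syndrome, while that of Shank3 organises the postsynaptic side of excitatory synapses and its loss is a known cause of autism. All mice, controls included, were injected subcutaneously for 7 days, and every group held 3 females and 3 males. The CBD dose was 5 mg/kg in males and 50 mg/kg in females, so sex and dose cannot be told apart among treated mice. The sources used here do not give strain, knockout alleles, age or the way the hippocampus was dissected.

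The choroid plexus is a tuft of secretory epithelium around leaky capillaries inside the brain ventricles. Its cells make cerebrospinal fluid by moving ions and water from blood to ventricle, seal the blood-fluid barrier with tight junctions, and release carrier proteins into the fluid. In the lateral ventricle it is attached along the fimbria, the fibre edge of the hippocampus, and a dissected hippocampus can carry some of it. The neurons of the hippocampus are not known for most of these genes, and the set was followed for the spread between libraries. In bulk tissue, fewer cells of a type and less RNA per cell cannot be told apart.

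Total counts ran from 11655697 in Shank3 KO vehicle replicate 2 to 33228089, with a median of 26717940.5. Levels are counts scaled to library size (CPM) after scaling by the trimmed mean of M-values (TMM), whose factors lay between 0.932 and 1.111. Fmr1 was at 30.7 to 44.8 CPM in the 12 Fmr1 KO libraries and at 57.6 to 81.3 CPM in the others, and Shank3 was at 153 to 218 CPM in the Shank3 KO libraries and at 196 to 390 CPM in the others. Each KO line thus had the lower mean of its own target, although the ranges of Shank3 overlapped. The animal code of WT CBD replicate 1 began with other letters than those of the remaining WT libraries, and the sources used here do not explain the letters.

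Ttr encodes transthyretin, which carries thyroxine and takes part in retinol transport, and is the leading secreted product of the choroid plexus. It spanned 2.07 to 2490 CPM over the 36 libraries, a 1200-fold range, with a median of 718 CPM. The lowest library, WT CBD replicate 2, held 52 Ttr reads and the highest, WT vehicle replicate 6, held 70602. In WT vehicle mice Ttr had a lowest value of 13.3, a median of 452 and a highest value of 2490 CPM (mean 805 ± 1000, SD, n = 6). In WT CBD mice the lowest, median and highest values were 2.07, 1600 and 1780 CPM (1120 ± 859, SD, n = 6). In these groups, as in the others, the SD was close to the mean or above it.

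In Fmr1 KO vehicle mice the lowest, median and highest Ttr levels were 27.5, 514 and 1680 CPM (630 ± 699, SD, n = 6). They were 7.41, 114 and 1180 CPM in Fmr1 KO CBD mice (370 ± 497, SD, n = 6). Every group therefore held libraries with little Ttr and libraries with much. In Shank3 KO vehicle mice Ttr was at 10.9, 1050 and 2250 CPM (1140 ± 945, SD, n = 6), and in Shank3 KO CBD mice at 13.4, 550 and 1640 CPM (606 ± 625, SD, n = 6). By median the groups ran from WT CBD through Shank3 KO vehicle, Shank3 KO CBD, Fmr1 KO vehicle and WT vehicle to Fmr1 KO CBD. The ranges of all 6 groups overlapped, and no neighbours in that order differed by more than their spread.

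**Figure D1:**
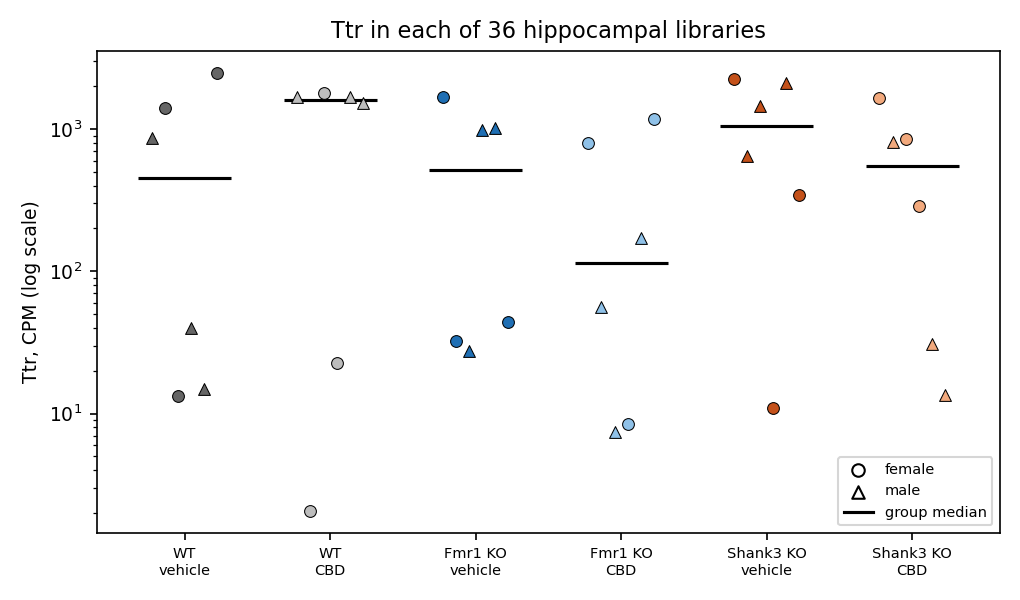
Ttr level in CPM (log axis) in each library, by group, with circles for females, triangles for males and a bar at the group median. The 36 libraries lie between 2.07 and 2490 CPM, and every group has libraries below 100 CPM as well as above it.

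Libraries with intermediate Ttr were few. In 22 libraries Ttr lay above 100 CPM, the lowest of them at 172, and in 14 it lay below, the highest of them at 56.2. The line at 100 CPM was drawn after the values were seen. Above it lay 3 of 6 WT vehicle, 4 of 6 WT CBD, 3 of 6 Fmr1 KO vehicle, 3 of 6 Fmr1 KO CBD, 5 of 6 Shank3 KO vehicle and 4 of 6 Shank3 KO CBD libraries. The sexes did not divide at that line either. The 3 WT CBD males were at 1520, 1680 and 1690 CPM while the 3 females were at 2.07, 22.5 and 1780 CPM. In Fmr1 KO CBD mice the males were at 7.41, 56.2 and 172 CPM and the females at 8.48, 792 and 1180 CPM.

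The genes of the barrier and of water transport kept the same pattern at lower levels. Aqp1, the water channel of the apical membrane, spanned 0.245 to 23.6 CPM over the 36 libraries, with a median of 5.22. Its highest library was WT vehicle replicate 6, as for Ttr. Cldn2, the claudin that forms cation-selective, water-permeable pores in tight junctions, spanned 0.186 to 20.3 CPM with a median of 6.46. In WT CBD mice its lowest, median and highest levels were 0.199, 12.1 and 17.9 CPM, and in Fmr1 KO CBD mice 0.186, 0.626 and 9.85 CPM. These groups differed in median but shared the range from 0.199 to 9.85 CPM.

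The ion transport genes followed. Slc4a5 encodes NBCe2, the sodium bicarbonate cotransporter of the choroid plexus, and spanned 0.245 to 49.3 CPM with a median of 15.8. Clic6, a chloride intracellular channel family gene used as a marker of this epithelium, spanned 0.438 to 92.9 CPM with a median of 31.4. The highest Clic6 library was WT CBD replicate 3, not the library highest in Ttr, and the lowest was again WT CBD replicate 2. Kcnj13, the inward rectifier Kir7.1 of the apical membrane, had 0 counts in all 36 libraries.

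The 0 of Kcnj13 stood beside a feature of the counts. The gene lies wholly within Gigyf2, a gene on the opposite strand that was at 115 to 201 CPM. Of 673 protein-coding genes lying within another gene on the opposite strand, 657 (97.6%) had 0 counts in all libraries. Of 376 within a gene on the same strand 353 (93.9%) had 0 counts, and of 20686 lying within no other gene 1905 (9.21%) did. The 0 therefore gives no level for Kcnj13 in this tissue. Folr1 shares 56.8% of its span with Anapc15, Otx2 31.7% with Otx2os1 and Gm49154, Clic6 21% and F5 1.07% with other genes. Levels of these 4 genes are uncertain for that reason, by an amount that the shared part of the span does not give. Ttr, Kl, Aqp1, Slc4a5 and Cldn2 share none of their span. The sources used here do not give the strand setting of the counting.

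Among the receptor and carrier genes, Folr1, the folate receptor alpha that takes folate from blood into the fluid, spanned 0.0398 to 13.0 CPM with a median of 2.69. Its lowest library held 1 read. Kl, which encodes klotho, a coreceptor of FGF23 that is also shed into the fluid, spanned 4.48 to 200 CPM with a median of 73.8. In WT vehicle mice Kl had lowest, median and highest levels of 23.4, 49.5 and 200 CPM, and in Shank3 KO vehicle mice 17.8, 109 and 178 CPM. Its 44.5-fold range was the narrowest of the measured genes, and its lowest library was Fmr1 KO CBD replicate 3. The lowest library was not WT CBD replicate 2 for Aqp1, Slc4a5 and Cldn2 either. It was Shank3 KO CBD replicate 6 for Aqp1 and Slc4a5, and Fmr1 KO CBD replicate 4 for Cldn2.

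Otx2, the homeobox transcription factor needed for choroid plexus development, ran from 0 to 9.79 CPM with a median of 3.86. Its 2 libraries without a read were WT CBD replicates 2 and 4, at 2.07 and 22.5 CPM of Ttr. A count of 0 allows up to 3 reads, for counting error only. F5, coagulation factor V, whose role in choroid plexus is less well known, spanned 1.11 to 91.6 CPM with a median of 34.1. Per kilobase of counted length, introns included, the median level was 79.4 CPM for Ttr, 1.79 for Kl, 0.612 for Cldn2 and 0.566 for Clic6. It was 0.498 CPM per kilobase for F5, 0.431 for Aqp1, 0.239 for Otx2, 0.216 for Folr1 and 0.185 for Slc4a5. Ttr thus stood far above the rest on that scale. The counted length includes bases shared with other genes, so the places of Folr1, Otx2, Clic6 and F5 among the rest are uncertain. Together the genes took 0.00177% of the counts of WT CBD replicate 2, 0.331% of those of WT vehicle replicate 6 and a median of 0.0891%.

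Promoter letters were read because the genes varied together. RefSeq promoter windows, from 250 bases before to 50 after a transcript start in build GRCm38.p6, were matched by symbol for 7 of the 10 genes, in 10 windows. The windows of Ttr, Folr1 and Clic6 were not used here. Shown are Cldn2 (chrX:139800558-139800857, plus strand) and Otx2 (chr14:48665060-48665359, minus strand), which hold the TATA box and the OTX letters named next, and Kl (chr5:150952357-150952656, plus strand), the gene with the narrowest range. Capitals mark matches to a motif on either strand.
Cldn2: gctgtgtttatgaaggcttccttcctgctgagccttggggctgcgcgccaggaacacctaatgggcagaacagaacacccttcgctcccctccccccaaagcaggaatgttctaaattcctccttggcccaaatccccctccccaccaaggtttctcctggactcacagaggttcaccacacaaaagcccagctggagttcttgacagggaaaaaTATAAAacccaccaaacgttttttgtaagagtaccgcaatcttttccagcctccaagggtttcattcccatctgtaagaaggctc
Otx2: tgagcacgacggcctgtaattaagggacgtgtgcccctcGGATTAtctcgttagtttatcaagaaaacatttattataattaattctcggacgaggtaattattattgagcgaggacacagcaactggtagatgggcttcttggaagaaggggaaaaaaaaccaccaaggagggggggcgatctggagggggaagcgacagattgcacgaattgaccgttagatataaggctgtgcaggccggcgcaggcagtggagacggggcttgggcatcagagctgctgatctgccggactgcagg
Kl: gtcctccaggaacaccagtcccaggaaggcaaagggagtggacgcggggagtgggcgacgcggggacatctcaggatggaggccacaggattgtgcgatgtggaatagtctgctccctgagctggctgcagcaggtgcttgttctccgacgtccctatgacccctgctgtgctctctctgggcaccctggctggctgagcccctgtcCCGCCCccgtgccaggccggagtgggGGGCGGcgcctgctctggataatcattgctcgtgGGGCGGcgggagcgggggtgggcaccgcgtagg
In the Cldn2 window the capitals are a TATA box, TATAAA, that begins at -35, counted with 1 as the first transcribed base. In the Otx2 window they are the core letters of OTX sites, TAATCC, on the other strand at -211, and in the Kl window 3 GC boxes, GGGCGG, at -43, -17 and 18.

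The 4 motifs were searched on both strands, and none overlaps another by its letters. TAATCC was in 1 of the 10 windows and in 7.06% of all 32851 promoter windows. TATAAA was in 4 of 10 windows, those of Kcnj13, Slc4a5, Cldn2 and Otx2, and in 13.6% of all. CCAAT was in 2 of 10 and 37.4% of all, and GGGCGG in 4 of 10 and 35.7% of all. With 10 windows of 7 genes, 4 of them for Otx2, these shares are a description of letters and not of binding.

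The spread between libraries of the same group was larger for these genes than for nearly all others. The SD of log2(CPM + 0.1) within groups was 3.27 for Ttr, 2.63 for Slc4a5, 2.32 for F5, 2.25 for Clic6, 2.23 for Cldn2, 2.19 for Folr1, 2.15 for Otx2 and 2.10 for Aqp1. It was 1.34 for Kl, and the median over all 21172 tested genes was 0.311. Ranked by that SD, Ttr was at place 5 and Slc4a5 at 7, and the other genes but Kl were at places 10 to 19. Kl was at place 127. The 4 genes ahead of Ttr were Uty, Eif2s3y, Kdm5d and Ddx3y, which lie on the Y chromosome and differ between males and females of a group. Among the 20 genes with the largest spread, 8 were of this set and 3 came from a list of 23 other tested choroid plexus genes.

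Little of that spread lay between the groups. Of the variance of log2 levels, 5.80% lay between the 6 groups for Ttr, 5.20% for Otx2, 7.08% for Clic6 and 7.22% for Slc4a5. The share was 8.58% for F5, 8.69% for Folr1, 8.96% for Aqp1, 10.6% for Cldn2 and 11.1% for Kl. The median over all tested genes was 11.7%, so each of the 9 genes was below it.

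The measured genes varied together from library to library. Over the 36 libraries, log2 levels correlated with Ttr at r = 0.984 for F5 (rho 0.977), 0.983 for Slc4a5 (0.982), 0.980 for Clic6 (0.961) and 0.9754 for Cldn2 (0.970). For Aqp1 r was 0.968 (rho 0.971), for Folr1 0.967 (0.957), for Otx2 0.954 (0.946) and for Kl 0.946 (0.973). In a two-sided permutation test with 100000 resamples, each of the 8 pairs had p = 1e-05 and an adjusted p = 1e-05, the smallest the resampling can give. Without the 2 libraries farthest from the median of Ttr, WT CBD replicate 2 and Fmr1 KO CBD replicate 3, r ran from 0.944 for Otx2 to 0.990 for Slc4a5. Centred within group and sex, r ran from 0.941 for Otx2 to 0.982 for F5, so the relation held within the groups. All genes of a library share its depth and scaling. With total counts in place of TMM, r ran from 0.948 for Kl to 0.984 for F5. Over all 21172 tested genes the median r with Ttr was -0.0035. The part of depth and scaling in the correlations was otherwise not tested.

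Because intermediate libraries were few, the relation was also computed on each side of 100 CPM of Ttr. Among the 22 libraries above it, r with Ttr ran from 0.951 for Folr1 to 0.985 for F5, with a permutation adjusted p = 1e-05 for each pair. Among the 14 libraries below it, r was 0.780 for Cldn2, 0.760 for Clic6, 0.760 for F5, 0.728 for Slc4a5, 0.613 for Aqp1 and 0.584 for Folr1, with adjusted permutation p-values of 0.0052 to 0.0355. It was 0.568 for Kl (adjusted p = 0.0591) and 0.508 for Otx2 (adjusted p = 0.0651), which missed the threshold in the permutation test of r. By rho the adjusted permutation p was 0.0185 for Kl and 0.209 for Otx2. In these 14 libraries Otx2 had at most 1.45 CPM and Folr1 at most 0.613 CPM, so the counts behind those values were small.

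**Figure D2:**
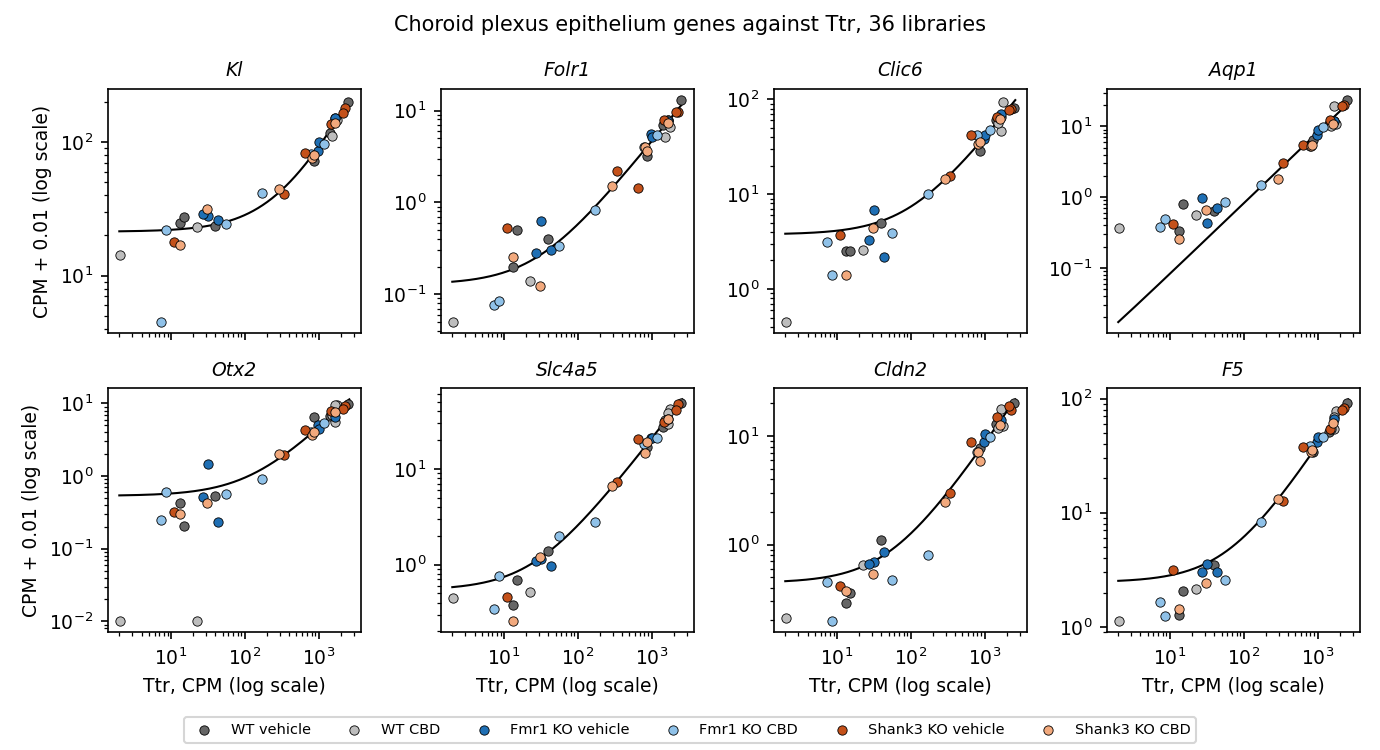
Level of 8 genes against Ttr, both in CPM on log axes, with 0.01 CPM added to the vertical values and 1 point per library coloured by group. The line is a straight-line fit on the linear scale, and the points follow it from 172 CPM of Ttr upwards, while the line of Kl levels off near 21.3 CPM, with a library at 4.48 CPM well below it, and Aqp1 stays above its line at low Ttr.

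On the linear scale the relation to Ttr was close to a straight line, which held from 94.0% of the variance for Otx2 to 98.3% for F5. Per 1000 CPM of Ttr the slope was 70.9 CPM for Kl, 36.9 for F5, 36.4 for Clic6 and 20.3 for Slc4a5. It was 8.21 for Cldn2, 8.20 for Aqp1, 4.50 for Folr1 and 4.18 for Otx2. The line met Ttr of 0 at 21.3 CPM of Kl, which is 28.9% of the median Kl level. For the other genes the intercept was between -0.177% of the median level (Aqp1) and 13.6% (Otx2). In WT CBD replicate 2, at 2.07 CPM of Ttr, Kl was still at 14.3 CPM with 360 reads, whereas Clic6 was at 0.438 CPM with 11 reads and F5 at 1.11 CPM with 28. In Fmr1 KO CBD replicate 3, the next lowest at 7.41 CPM of Ttr, Kl was at 4.48 CPM with 133 reads. Over the 14 libraries below 100 CPM of Ttr, Kl ran from 4.48 to 31.5 CPM, and the intercept of its line is a description with no test.

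In the 22 libraries above 100 CPM of Ttr, the ratio to Ttr varied far less than the level did for each gene but Kl. The level of Kl ran from 40.8 to 200 CPM there, and its ratio from 73.0 to 241 CPM per 1000 CPM of Ttr. F5 stood at a median of 39.4 CPM per 1000 CPM of Ttr, between 32 and 58.0, a coefficient of variation (CV) of 13.9% where counting alone gives 3.46%. The CV was 14.9% for Slc4a5, 17.1% for Aqp1, 18.8% for Folr1, 20% for Cldn2, 20.3% for Clic6, 20.7% for Otx2 and 36.7% for Kl. Counting alone gives 2.20% for Kl up to 10.9% for Folr1. The ratio of Kl was highest, at 241 CPM per 1000 CPM of Ttr, in Fmr1 KO CBD replicate 5, the library with the lowest Ttr of these 22.

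A few libraries departed in several ratios at once. WT CBD replicate 1 had the highest ratio of Aqp1, 11.6 CPM per 1000 CPM of Ttr against a median of 7.77, and the lowest of Clic6 (27.7 against 41.7), Otx2 (3.31 against 4.76) and F5 (32 against 39.4). Shank3 KO vehicle replicate 2, the library with the fewest reads, had the highest ratios of Clic6 (65.3), Slc4a5 (31.9 against a median of 21.1), Cldn2 (13.7 against 8.55) and F5 (58.0). It also had the lowest ratio of Folr1, 2.19 against a median of 4.67, from 16 Folr1 reads. These libraries were singled out after their values were seen, and no test was made of them.

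**Figure D3:**
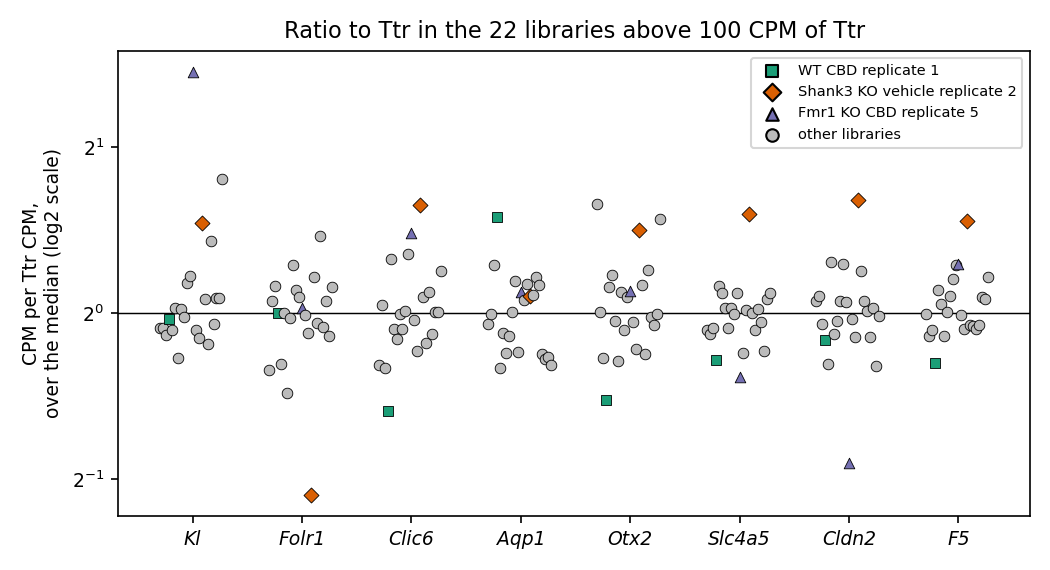
Level of 8 genes per Ttr level, divided by the median over the 22 libraries above 100 CPM of Ttr (log2 axis), with 3 libraries marked. Most points lie within a 2-fold band around the median, while WT CBD replicate 1 is high for Aqp1 and low for Clic6, Otx2 and F5.

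Comparisons between groups found no called gene of this set. In Fmr1 KO against WT mice under vehicle, which asks what loss of the RNA-binding protein changes, 0 of the 9 tested genes were called at an adjusted p under 0.05 in edgeR, where 6 of 21172 genes (0.0283%) were. Ttr averaged 630 ± 699 CPM against 805 ± 1000 (SD, n = 6 each), a log2 fold change of -0.08 (SE 1.34, 95% interval -2.81 to 2.64, adjusted p = 1). Its values spread over the same range in both groups. The 9 fold changes lay between -0.33 for Otx2 and 0.04 for Clic6, with a median of -0.08 against 0.00 for all genes. The sign of Ttr, Kl, Clic6 and Otx2 turned with the model or with a library left out, so no direction is given here.

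In Fmr1 KO against WT mice under CBD, 0 of 9 genes were called, where 7 of 21172 genes (0.0331%) were. All 9 had lower mean values in the KO, with a median log2 fold change of -1.72, between -2.07 for Ttr (SE 1.34, 95% interval -4.80 to 0.65, adjusted p = 0.776) and -1.28 for Kl (SE 0.667, adjusted p = 0.707). Ttr averaged 370 ± 497 CPM against 1120 ± 859 (SD, n = 6 each), and the ranges overlapped from 7.41 to 1180 CPM. Since the genes vary together, 9 values on the same side are not 9 separate observations. The smallest unadjusted p among them was 0.0761, for Kl, while 1567 of all tested genes had one under 0.05. Of 13 ependymal genes, which belong to the ciliated lining of the ventricle, 12 also had lower values and 0 were called. Their summed level was 28.9 to 69.0 CPM in Fmr1 KO CBD and 13.5 to 115 CPM in WT CBD libraries. Several lists of markers of tissue beside or within the hippocampus had lower values too, with 0 called, but not those of CA1 and dentate neurons. Of these, 5 of 7 CA1 genes (median 0.28) and 8 of 13 dentate genes (median 0.08) had higher values. For CA3 neurons 8 of 10 genes had lower ones (median -0.16). All 12 striatal genes had lower values (median -1.89, 9 at an unadjusted p under 0.05, summed 364 to 754 against 287 to 1610 CPM). So did all 11 oligodendrocyte genes (median -0.72, 11 at an unadjusted p under 0.05, summed 589 to 2850 against 2350 to 4570 CPM), all 12 endothelial genes (median -0.12) and 9 of 11 thalamic and habenular genes (median -0.70). The part of these tissues in the result was not tested.

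In Shank3 KO against WT mice under vehicle, 0 of 9 genes were called, where 8 of 21172 genes (0.0378%) were. All 9 had higher values in the KO, between 0.53 for Otx2 and 0.93 for Clic6 on the log2 scale, with Ttr at 0.83 (SE 1.34, 95% interval -1.89 to 3.55, adjusted p = 0.913). Of the 13 ependymal genes 13 had higher values, with summed levels of 53.2 to 108 CPM against 42.2 to 79.9 CPM. Over all 21172 tested genes, 1193 had an unadjusted p under 0.05 in edgeR. Of 12 striatal genes 11 had higher values (median 1.78, 9 at an unadjusted p under 0.05, summed 537 to 1590 against 296 to 703 CPM), as had all 11 oligodendrocyte genes (median 0.23), while 12 of 13 dentate genes had lower ones (median -0.42). Of 12 endothelial genes 11 had higher values (median 0.17), and of 11 fibroblast genes 10 had lower ones (median -0.17). None of these was called, and their part was not tested. Under CBD the same contrast had all 9 genes at lower values and 0 called, where 9 of 21172 genes (0.0425%) were. The median was -1.05, with Aqp1 lowest at -1.37 and Ttr at -1.25 (SE 1.34, 95% interval -3.97 to 1.47, adjusted p = 1). All 12 striatal genes (median -1.11), 10 of 11 thalamic and habenular genes (median -0.36) and all 11 oligodendrocyte genes (median -0.16) had lower values there as well. Higher values were found for all 13 dentate genes (median 0.22), 9 of 13 ependymal genes (median 0.07) and 8 of 11 fibroblast genes (median 0.11). In all these lists 0 genes were called, and their part was not tested. Both KO lines were set against the same WT libraries, so these comparisons are not independent of each other.

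CBD against vehicle asks what the drug changes in each genotype. In WT mice 0 of 9 genes and 0 of 21172 genes (0%) were called in edgeR, where 567 genes, but 0 of these 9, had an unadjusted p under 0.05. The 9 values were higher with CBD, from 0.48 for Folr1 to 0.91 for Slc4a5, and Ttr was at 0.88 (SE 1.34, 95% interval -1.84 to 3.60, adjusted p = 1). All 12 striatal genes (median 1.77, 10 at an unadjusted p under 0.05), all 12 endothelial genes (median 0.29, 5 of them) and all 11 oligodendrocyte genes (median 0.17) had higher values in the same contrast. Lower values were found for 12 of 13 dentate genes (median -0.15) and 8 of 13 ependymal genes (median -0.07). None of them was called, and their part was not tested. In Fmr1 KO mice 0 of 9 and 0 of 21172 genes (0%) were called. The 9 values were lower with CBD, from -1.11 for Ttr (SE 1.34, 95% interval -3.84 to 1.61, adjusted p = 1) to -0.71 for Kl, and 557 of all genes had an unadjusted p under 0.05. In Shank3 KO mice, again with 0 of 9 and 0 of 21172 genes (0%) called, they were lower too, from -1.47 for Aqp1 to -0.79 for Kl, with Ttr at -1.20 (SE 1.34, 95% interval -3.92 to 1.52, adjusted p = 0.963). Beside them, all 11 oligodendrocyte genes had lower values with CBD, at a median of -0.45 in the Fmr1 line and -0.21 in the Shank3 line. In Shank3 KO mice 11 of 12 striatal genes had lower values (median -1.14) and all 13 dentate genes higher ones (median 0.53). Of 13 ependymal genes, 12 had lower values in the Fmr1 line and 13 in the Shank3 line. None was called, and their part was not tested.

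The mean CBD effect over the 3 genotypes gave 0 of 9 called genes, where 4 of 21172 genes (0.0189%) were called. Ttr was at -0.48 (SE 0.772, 95% interval -2.05 to 1.09, adjusted p = 1) and the others lay between -0.60 for Aqp1 and -0.33 for Kl. All 13 ependymal genes had lower values (median -0.34), 3 of them at an unadjusted p under 0.05 in edgeR, as 670 of all 21172 genes had. All 11 oligodendrocyte genes had lower values too (median -0.18), while 10 of 11 fibroblast genes had higher ones (median 0.26). None of these was called, and their part was not tested. The difference of the CBD effect between Fmr1 KO and WT mice was -1.99 for Ttr (SE 1.89, 95% interval -5.84 to 1.86, adjusted p = 0.993). Between Shank3 KO and WT mice it was -2.08 for Ttr (SE 1.89, 95% interval -5.93 to 1.77, adjusted p = 0.912). In both differences 0 of 9 and 0 of 21172 genes (0%) were called. Unadjusted p-values under 0.05 were found for 635 and 1004 genes, but for 0 of these 9. Of 12 striatal genes, 12 had lower values in the first difference (median -2.31) and 11 in the second (median -2.88), with 0 called and their part not tested. Of 13 dentate genes, 9 had lower values in the first difference (median -0.05). In the second, 12 had higher ones (median 0.65, 5 at an unadjusted p under 0.05 in edgeR), again with 0 called and their part not tested. Of 13 ependymal genes, 12 had lower values in the first difference (median -0.40) and 13 in the second (median -0.44). All 11 oligodendrocyte genes had lower values in both (medians -0.62 and -0.37). Of 11 fibroblast genes, 7 had lower values in the first (median -0.11) and 9 had higher ones in the second (median 0.26). None of these was called, and their part was not tested. The opposite signs in WT and KO mice are therefore not shown to be a difference in the response to CBD, and both differences use the same WT libraries.

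**Figure D4:**
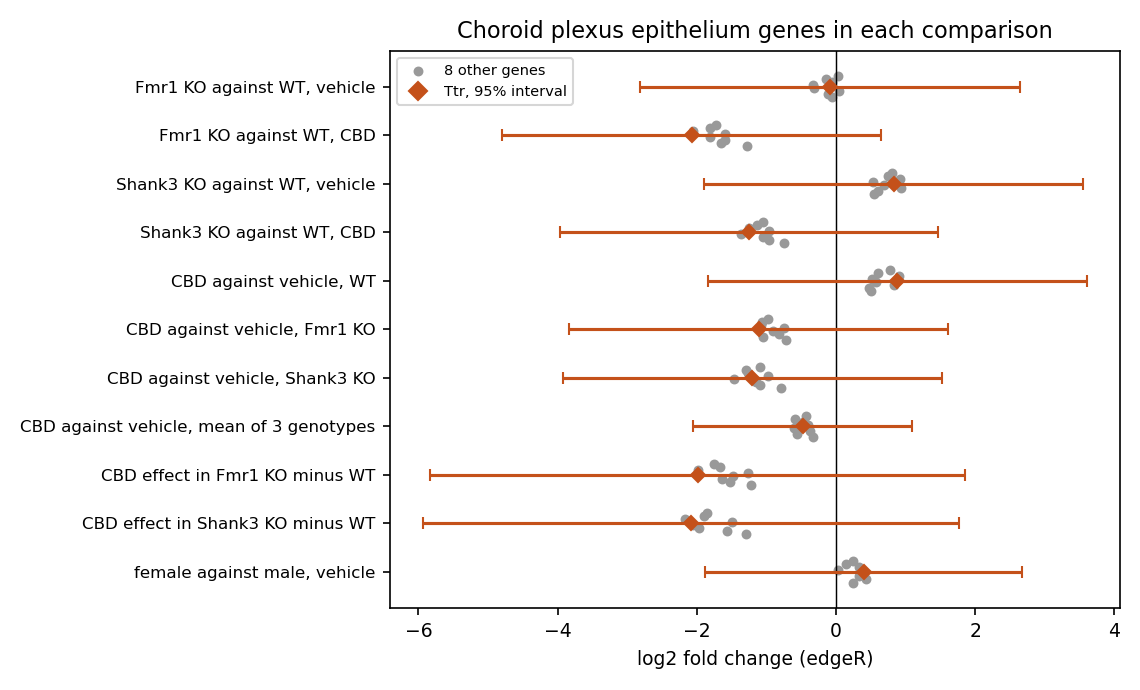
Log2 fold change of Ttr (diamond, with its 95% interval) and of the 8 other tested genes (grey points) in the 11 comparisons. The points of a comparison lie close together, and every interval of Ttr covers 0, for example -4.80 to 0.65 in Fmr1 KO against WT mice under CBD.

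Females against males under vehicle, over the 3 genotypes, gave 0 of 9 called genes, where 7 of 21172 genes (0.0331%) were called. Ttr was at 0.40 (SE 1.11, 95% interval -1.88 to 2.67, adjusted p = 1), with mean levels of 920 CPM in females and 796 CPM in males. The values ran from 0.03 for Otx2 to 0.43 for Folr1. With limma voom Ttr was at -0.54 and Otx2 at -0.32, and with the replicate number as a block at -1.46 and -0.73, so no direction is given here. Of 12 striatal genes 11 had lower values in females (median -1.36), with 0 called and their part not tested. Across all 11 comparisons the count of called genes of this set was 0 of 9, and 0 of 9 had an unadjusted p under 0.05. DESeq2 and limma voom also called 0 of them.

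Other genes of the choroid plexus, from a list of 27, followed the same course. Of these, 23 were tested, and Sostdc1, Slc16a8, Pcolce and Mfrp had 0 counts in all libraries. Whether those without counts lie within other genes, as Kcnj13 does, was not looked up, so their 0 is not read as absence. The mean log2 level of the list correlated with Ttr at r = 0.961 over the 36 libraries (rho 0.960, adjusted permutation p = 4.33e-05). In the 22 libraries above 100 CPM of Ttr r was 0.980, and in the 14 below it was 0.423 (adjusted permutation p = 0.328). By gene, 15 of 23 (65.2%) had an r with Ttr above 0.9, which 70 of 21172 genes (0.331%) had. The 3 most abundant were Enpp2, which encodes autotaxin, at 78.8 to 2120 CPM, Cab39l at 33.5 to 101 CPM and Sulf1, an extracellular sulfatase, at 6.70 to 112 CPM. The r with Ttr was 0.942 for Enpp2, 0.883 for Cab39l and 0.840 for Sulf1. None of the 23 was called in any comparison. In Fmr1 KO against WT mice under CBD, 22 of 23 had lower values (median -1.20), where 10571 of all 21172 genes did.

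Genes that drive fluid secretion but are used by many cells did not all follow. As a list of 13, led in r by Kcne2 (0.979), a potassium channel subunit that the list of 27 holds too, and Slc4a2 (0.930), an anion exchanger of the basal membrane, the mean correlated with Ttr at r = 0.957 (rho 0.957, adjusted permutation p = 4.33e-05). By gene the median r was only 0.440, and 2 of 13 (15.4%) had an r above 0.9. The mean was of unscaled log2 levels, so Kcne2, with an SD within groups of 2.32, weighed most. The next largest SD was 0.759, for Slc4a2. The list without Kcne2 was not tested. The carbonic anhydrase genes Car14 and Car12 had an r of 0.834 and 0.797. Abundant genes of the list were nearly flat. Atp1b1, a subunit of the sodium pump, ran from 634 to 1120 CPM (r = 0.02 with Ttr), and Slc4a10 from 326 to 493 CPM (0.42). Neurons use both genes as well.

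Carriers and enzymes of retinol, thyroxine and folate gave r = 0.753 as a list of 10 (rho 0.786, adjusted permutation p = 4.33e-05), among them Slco1c1, a thyroxine transporter (0.841). Slco1c1 ran from 38.6 to 89.6 CPM and Dio2, a deiodinase of glia, from 34.6 to 67.5 CPM (r = -0.25). Ependymal genes gave r = 0.682 as a list of 13 (rho 0.631, adjusted permutation p = 6.5e-05). Their level spanned less than that of the choroid plexus genes, with a sum of 13.5 to 115 CPM. Hydin, a ciliary protein gene, ran from 1.79 to 24.6 CPM, Foxj1, the regulator of motile cilia, from 2.79 to 19.7 CPM and Dnah12, a dynein gene, from 1.75 to 17.0 CPM. In the 22 libraries above 100 CPM of Ttr, r was 0.539 for the carriers and 0.502 for ependyma, with adjusted permutation p-values of 0.0464 and 0.0541.

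Markers of other cell types and regions had an r with Ttr nearer to 0. Over the 36 libraries r was 0.433 for thalamus and habenula (rho 0.424, adjusted permutation p = 0.0187), 0.398 for endothelium (rho 0.306, 0.0349) and 0.386 for meningeal fibroblasts (rho 0.342, 0.0383). In the 22 libraries above 100 CPM these were 0.288, -0.20 and 0.03, with adjusted permutation p-values of 0.415, 0.707 and 0.917, over fewer libraries and a narrower range of Ttr. Without the 2 libraries farthest from the median of Ttr they were 0.474, 0.328 and 0.562, with adjusted permutation p-values of 0.00702, 0.0958 and 0.00159, so the call for endothelium rested on those 2 libraries. Over the 36 libraries it was 0.339 for CA3 neurons (rho 0.171, adjusted permutation p = 0.0624), 0.300 for oligodendrocytes (rho 0.269, 0.0957), 0.238 for striatum (rho 0.134, 0.193), 0.175 for dentate granule neurons (rho -0.09, 0.349) and -0.14 for blood (rho -0.10, 0.413). For CA1 neurons r was -0.33 (rho -0.43, adjusted permutation p = 0.0708), and -0.50 without the 2 libraries farthest from the median of Ttr (adjusted permutation p = 0.00305). For CA3 that value was -0.05, so its positive r rested on those 2 libraries. All these adjusted p-values are those of r, including where rho stands beside them. For rho over the 36 libraries the adjusted permutation p was 0.0225 for thalamus and habenula and 0.0225 for CA1 neurons. It was 0.114 for endothelium and 0.077 for fibroblasts, which missed the threshold by rank.

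**Figure D5:**
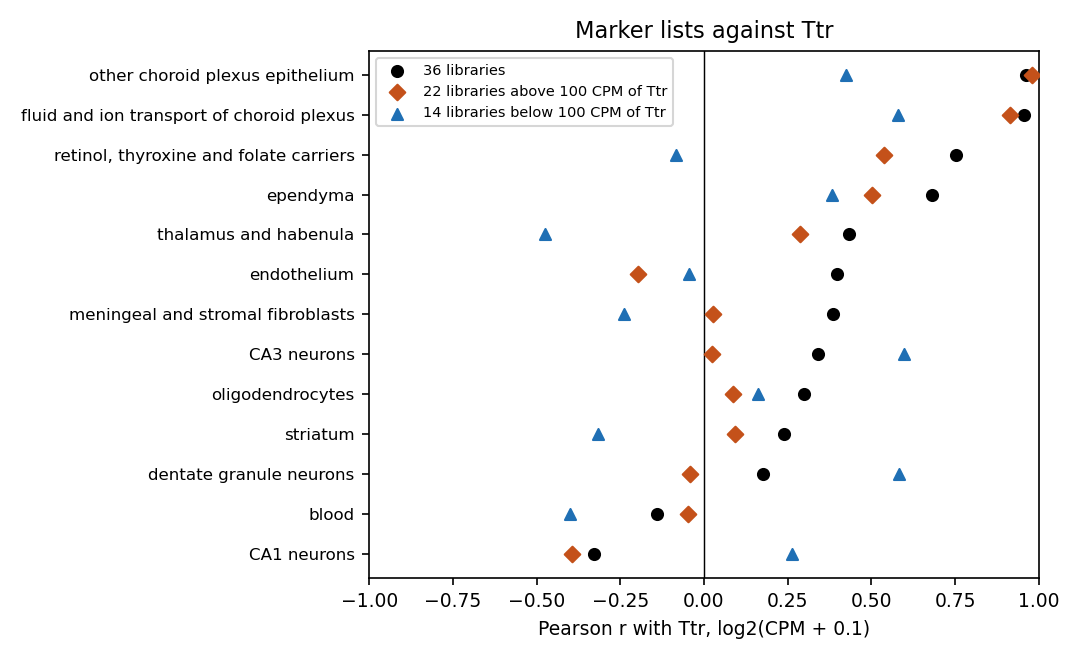
Pearson r between the mean log2(CPM + 0.1) of each marker list and Ttr, over 36 libraries (circles), the 22 above 100 CPM of Ttr (diamonds) and the 14 below (triangles). The lists of other choroid plexus genes and of fluid and ion transport lie at 0.961 and 0.957 over all libraries. Those of hippocampal neurons, striatum and blood lie between -0.33 and 0.34, and that of thalamus and habenula at 0.433. By gene, the median r was 0.920 for other choroid plexus genes and 0.440 for fluid and ion transport.

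The most abundant genes of these lists give their scale. In the thalamus and habenula list Ntng1 ran from 96.7 to 482 CPM, Plekhg1 from 35.8 to 268 CPM and Tcf7l2 from 25.5 to 175 CPM. In the striatum list Pde10a ran from 212 to 1090 CPM, Rgs9 from 17.6 to 212 CPM and Lrrc10b from 2.76 to 46.8 CPM. Markers of tissue beside the hippocampus thus varied as well, though less than Ttr. Endothelial Flt1 ran from 40.8 to 80.1 CPM, Slco1a4 from 23.1 to 56.0 CPM and Slc2a1 from 21.7 to 46.7 CPM. Fibroblast Cemip ran from 35.5 to 84.9 CPM, Dcn from 1.69 to 55.9 CPM and Aebp1 from 6.44 to 21.8 CPM, while Ogn and Igf2 had 0 counts. Among blood genes Hba-a1 reached 8.16 CPM and Hbb-bt 2.43 CPM, and Hba-a2, Hbb-bs and Alas2 had 0 counts, so the blood list rested on 2 genes. The globin genes are near-identical copies, between which reads can be lost. Overlap with other genes was not looked up for the listed genes with 0 counts, whose 0 is not read as absence.

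Abundant genes of the neuronal and glial lists also differed in level between libraries. In the CA1 list Dkk3 ran from 47.6 to 250 CPM, Mpped1 from 48.5 to 243 CPM and Fibcd1 from 13.4 to 202 CPM. In the CA3 list Grik4 ran from 94.6 to 437 CPM and Cpne4 from 138 to 349 CPM. In the dentate list Glis3 ran from 89.6 to 422 CPM, Pdzd2 from 146 to 472 CPM and Stxbp6 from 88.9 to 306 CPM. The myelin genes Mbp and Mobp ran from 250 to 1690 CPM and from 28.6 to 281 CPM. No gene of any list was called in any of the 11 comparisons.

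Among tested genes outside the set that have a symbol, predicted genes left out, the 10 whose pattern was most like it were found by the correlation, over the 36 libraries, of log2(CPM + 0.1) with the mean of the standardized values of the 9 tested genes. Kcne2 stood at the top with r = 0.987 (0.0796 to 15.3 CPM), followed by Tmem72, a transmembrane protein gene, at 0.981 (0.0674 to 68.8 CPM). Rdh5, a retinol dehydrogenase, was at 0.974 (1.23 to 11.6 CPM), Wdr72 at 0.974 (0.163 to 9.40 CPM) and Enpp2 at 0.973 (78.8 to 2120 CPM). Then came Krt18, a keratin of simple epithelia, at 0.971, Drc7, a component of motile cilia, at 0.970, Mdfic at 0.969, the collagen gene Col8a2 at 0.969 and Slc2a12, a glucose transporter, at 0.968. Of these, Kcne2, Tmem72, Rdh5, Enpp2 and Slc2a12 were on the list of other choroid plexus genes.

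By the same rule, the 5 genes with the most opposed pattern had an r closer to 0. They were Zfp697 (r = -0.67, 46.1 to 83.8 CPM), Nuak1 (-0.64, 67.1 to 138 CPM), Ncoa5 (-0.64, 57.1 to 69.1 CPM), Sidt1 (-0.64, 64.7 to 151 CPM) and Pcnx2 (-0.63, 105 to 162 CPM). Each spanned under 3-fold over the libraries. Over all tested genes 916 (4.33%) had an r with Ttr above 0.5 and 94 (0.444%) had one below -0.5. As a description, these values show where the libraries with much Ttr differ from the rest, with no test of each gene.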

How the data were processed

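RNA from hippocampus of 36 mice was sequenced, and what the authors deposited are unnormalized counts of reads for each gene. Per the submitters' processing notes, the tools named are FastQC, STAR 2.7.11b, featureCounts 2.0.8, DESeq2 and edgeR, with build GRCm39. Sex came from the deposited sample table. The deposited gene lengths are within 5% of the whole gene span in 98.1% of 20275 protein-coding genes of GENCODE mouse release M21, so counts were read as covering introns. That release gave names (51498 identifiers, 99% of counts), gene spans and overlaps only. The spans and overlaps thus rest on coordinates of an older build than that of the counts.

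The count analysis ran in edgeR 4.0.16 under R 4.3.3, with filterByExpr, TMM, and a quasi-likelihood model over all 36 libraries with a coefficient per group and an additive sex term. The sex contrast used a coefficient per genotype, treatment and sex. Calls were made at a Benjamini-Hochberg adjusted p under 0.05 over all tested genes, with no minimum fold. The SE came from the information matrix scaled by the moderated variance. The model with a coefficient per group was tested on simulated data, for Fmr1 KO against WT mice under vehicle only. The other models and the correlations were not tested in that way. Correlations used log2(CPM + 0.1), 100000 resamples and scipy 1.17.1, adjusted over 8 pairs, since Kcnj13 had no counts, or over 13 lists. Their p-values are those of r unless the text says that they are for rho. Alternatives included DESeq2 1.42.0 and limma 3.58.1.

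The genes, lists and tests were chosen with earlier results of these data known. Named genes were the whole set, the 3 genes of each list with the highest mean CPM, called list genes, and the 10 most alike and 5 most opposed genes. Some genes that this rule names are not reported here. No animal code was repeated, and 1 library was taken to be 1 animal. No 2 libraries were alike beyond r = 0.9909.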

Additional observations from a re-analysis of the deposited data

Results flagged for a closer look

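Ttr in Shank3 KO vehicle replicate 4 was at 10.9 CPM, far below the other 5 libraries of its group, the nearest of which was at 342 CPM. On the log2(CPM + 0.1) scale that gap was 0.646 of the range of the group, above Dixon's 95% critical value for 6 samples. In total, 54 groups of 6 values were examined, and chance alone marks about 1 in 20 of them, so a lone mark has little weight. The group otherwise ran up to 2250 CPM. Without that library the log2 fold change of Ttr in Shank3 KO against WT mice under vehicle was 1.16 (adjusted p = 0.892 in edgeR) in place of 0.83, with 0 of 9 genes called either way.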

How the results depend on the processing

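In each of the 11 comparisons, 0 of the 9 tested genes were called in edgeR and under each alternative that was fitted: DESeq2 size factors, no filter beyond a total of 1 count, no sex term, the replicate block, the genes left out of the library totals, the compared groups alone, limma voom, the Wald test of DESeq2, and each library left out in turn (0 to 0). Of 265 fold changes of named genes under settings other than leaving out a library, 251 kept their sign. In Fmr1 KO against WT mice under vehicle the sign turned for Clic6 to -0.17 with no sex term and -0.063 with limma voom, for Kl to 0.033 in the compared groups alone and for Ttr to 0.68 with the replicate block and 0.29 with limma voom. In females against males the replicate block gave -1.46 for Ttr, -0.30 for Kl, -0.42 for Folr1 and -0.73 for Otx2, and limma voom gave -0.54, -0.15, -0.15 and -0.32. Limma voom gave -0.013 for Folr1 in CBD against vehicle in WT mice. The cause of these turns was not tested. Replicate numbers did not pair the libraries, whose same-number correlations averaged -0.0986 to 0.142, and the block changed no call among these genes. Over all genes it took the mean CBD effect from 4 calls to 1.

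With a library left out, Ttr ran from -0.56 to 0.51, Clic6 from -0.42 to 0.51, Kl from -0.42 to 0.41 and Otx2 from -0.67 to 0.072 in Fmr1 KO against WT mice under vehicle. In females against males Ttr ran from -0.92 to 1.56, Kl from -0.23 to 0.47, Folr1 from -0.44 to 0.98 and Otx2 from -0.56 to 0.92. No sign turned in the other 9 comparisons, but Ttr moved: from 0.54 to 1.42 for CBD against vehicle in WT, -1.80 to -0.61 in Fmr1 KO and -1.67 to -0.83 in Shank3 KO mice, from 0.46 to 1.40 for Shank3 KO against WT under vehicle, and from -0.72 to -0.25 for the mean CBD effect. In these 9 comparisons other settings moved Ttr by over 1.5 times as follows. The block gave -2.22 for CBD in Fmr1 KO mice, -0.73 in Shank3 KO mice and -0.75 for the mean CBD effect, and -0.57 for Shank3 KO against WT under CBD. Limma voom gave -0.18 there and 1.61 under vehicle. No sex term gave 0.50 for Shank3 KO against WT under vehicle, 0.47 for CBD in WT mice, and -1.24 and -1.38 for the CBD effect in Fmr1 KO and Shank3 KO minus that in WT mice. The spread of Ttr within groups stayed between 3.01 and 3.32.

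Of 13 lists, 7 had an r with Ttr at an adjusted permutation p under 0.05 over all libraries, 3 in the 22 libraries above 100 CPM of Ttr and 0 in the 14 below, where fewer libraries are tested. Without the 2 libraries farthest from the median of Ttr, r became 0.017 for blood, -0.050 for CA3 neurons and -0.29 for dentate neurons, and centred within group and sex it was 0.041 for blood. Above 100 CPM it was -0.20 for endothelium and -0.041 for dentate neurons. Below 100 CPM it was -0.084 for the carriers, -0.24 for fibroblasts, -0.045 for endothelium, -0.32 for striatum, -0.48 for thalamus and 0.26 for CA1 neurons. The mean CBD effect has no fit in the compared groups alone, since it uses all groups, and females against males has none without a sex term.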
